A study of Mus musculus with 7 samples.

Results

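The genes described here encode 8 nuclear RNA-binding proteins of paraspeckles or of the FET family: Sfpq, Nono, Pspc1, Matr3, Ewsr1, Taf15, Tardbp and Rbm14. Their members are the intervals of the deposited count table that overlapped the GENCODE M21 span of 1 of these genes on its strand (mm10), which gave 108 of 303889 intervals, called features below. A feature was called exonic when at least 1 of its bases lay in an exon of a basic transcript of the gene, and intronic otherwise. By this rule 62 features were exonic and 46 intronic, and 60 and 45 of these passed the filter on low counts. Pspc1 held 28 features, Taf15 19, Matr3 15, Ewsr1 15, Sfpq 10, Nono 10, Tardbp 7 and Rbm14 4. None of the 108 was on the authors' filtered list of 33671 peaks or on their short list of 10043 peaks.

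The study precipitated RNA with an antibody raised against EZH2, the catalytic subunit of Polycomb repressive complex 2, and sequenced it (RIP-seq). According to the title of the series, the antibody also binds the nuclear RNA-binding protein SAFB. The cells were male mouse embryonic stem cells of strain CAST/B6 with a recombination cassette at Rosa26, grown in 15% fetal bovine serum at 37 °C and 5% CO2, and each of the 3 groups had 3 days of doxycycline, whose target the labels do not name. Wild type (WT, n = 3) was the parental line and clones 20 and 44, the Ezh2 knockout (EZH2 KO, n = 2) was clones 12 and 19, and the line lacking both Safb and Safb2 (SAFB DKO, n = 2) was clones 13 and 4. Replicates were thus lines or clones, and p-values measure the spread between them. In bulk samples such as these, fewer cells of a type and less RNA per cell cannot be told apart, and neither can more of an RNA and more of it precipitated, because input RNA was not analysed here.

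Paraspeckles are nuclear bodies built on the long noncoding RNA Neat1. SFPQ, NONO and PSPC1 form dimers with each other through a shared domain and bind Neat1, MATR3 is a nuclear matrix protein with RNA recognition motifs, and RBM14 is needed to assemble the body. EWSR1 and TAF15 belong to the FET family, whose low-complexity domains and RGG repeats mediate condensation and RNA binding, and TARDBP (TDP-43) binds UG-rich RNA in introns and 3′ untranslated regions.

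Libraries held 19024702 to 21832539 counts in WT, 7050832 to 8353603 in EZH2 KO and 15812517 to 18738499 in SAFB DKO. Log2 levels over all tested features had pairwise correlations of 0.95 to 0.956 within WT, 0.929 within SAFB DKO and 0.827 within EZH2 KO. Safb and Safb2 had at most 2.92 CPM (counts scaled to library size) in SAFB DKO, and Ezh2 had at most 2.26 CPM in EZH2 KO, so targeted RNA was near absent where the labels say so. The third WT library had 117 CPM of Safb and 124 of Safb2. WT replicates 1 and 2 had 239 and 245 CPM of Safb and 289 and 302 of Safb2. EZH2 KO had 284 and 314 CPM of Safb and 615 and 749 of Safb2, and the part of these levels in the results below was not tested. Of the embryonic stem cell markers, 15 of 15 had features, with a summed level of 4727 to 4945 CPM in WT, 5576 to 6180 in EZH2 KO and 4362 to 4580 in SAFB DKO, whereas the fibroblast markers summed to 3.93 to 11.5 CPM with Col1a2, Dcn, Lum and Postn at 0. Among exonic sums of the stem cell markers 9 rose and 3 fell in SAFB DKO (median 0.42), and 8 fell and 4 rose in EZH2 KO (median -0.42). Pou5f1, a pluripotency factor gene, had 0.72 and -1.07, while Tet1, which held the most counts of the list, had -0.62 and 0.58, and the part of these changes in the results below was not tested. Summed trophoblast markers were 48.2 to 69.0 CPM in WT, 127 to 128 in EZH2 KO and 77.3 to 82.1 in SAFB DKO with Elf5 at 0, and their part in the results below was not tested. Neural markers summed to 206 to 285 CPM in WT, 126 to 143 in EZH2 KO and 116 to 122 in SAFB DKO, with Neurog2 among those at 0, and endoderm markers to 9.26 to 20.9 CPM, with Afp, Foxa2 and Sox17 at 0. Column names of the EZH2 KO libraries follow another pattern than those of WT and SAFB DKO, and 1 sequencing sample number occurs in both an EZH2 KO and a WT column. If EZH2 KO was sequenced in another run, run and genotype cannot be told apart in any comparison with it.

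Taken from the most counted exonic feature of each of 3 genes whose exonic counts were higher in SAFB DKO, coding RNA is shown to give an idea of what was counted. Each line is the 120-base stretch with most GAAGAA hexamers (5′-most of ties) in the longest coding piece of 1 exon, read from GENCODE M21 transcripts (mm10, 5′ to 3′, capitals mark GAAGAA).
Nono (chrX:101447603-101447722, plus strand, end of the coding sequence): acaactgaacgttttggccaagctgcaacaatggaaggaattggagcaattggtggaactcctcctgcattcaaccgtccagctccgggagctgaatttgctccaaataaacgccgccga
Ewsr1 (chr11:5070262-5070381, minus strand): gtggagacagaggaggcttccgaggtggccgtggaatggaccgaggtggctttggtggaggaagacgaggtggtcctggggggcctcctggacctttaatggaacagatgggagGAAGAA
Taf15 (chr11:83504642-83504761, plus strand): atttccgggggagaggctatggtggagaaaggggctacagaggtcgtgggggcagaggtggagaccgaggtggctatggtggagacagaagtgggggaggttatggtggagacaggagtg
GAAGAA, a purine-rich hexamer searched on the sense strand only, occurred once in the Ewsr1 stretch and not in the Nono or Taf15 stretch, and 11.8% of 280804 coding windows of this length held it. Those windows were not picked for the hexamer, as the printed stretches were, so that share is no expectation for the stretches. Over whole coding sequences, Pspc1 had 3.19 matches per kb, Matr3 2.36, Sfpq 1.91, Nono 1.41, Taf15 1.20, Ewsr1 0.509, Rbm14 0.498 and Tardbp 0, and the median over 21860 coding sequences was 0.869. A match is a string of letters, and no match says only that these letters were not found.

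In WT the exonic features of Sfpq held the most counts per kb of feature, 70.6 ± 5.50 CPM per kb (SD, n = 3), and those of Matr3 came next at 48.3 ± 3.07. Tardbp had 28.7 ± 1.07, Rbm14 24.6 ± 1.66 and Nono 21 ± 0.214 CPM per kb. Pspc1 at 18.5 ± 1.04 and Ewsr1 at 18.2 ± 1.76 differed by less than the SD of either, and Taf15 was lowest at 14.1 ± 2.32. Intronic features were led by Ewsr1 at 14.7 ± 1.20 CPM per kb and Sfpq at 13.0 ± 0.996. The Sfpq features of this class lie downstream of its coding transcripts and not in their introns. Rbm14 at 10.1 ± 1.71 and Matr3 at 8.77 ± 0.762 were closer than the SD of Rbm14, and Tardbp at 7.74 ± 0.307 and Taf15 at 7.41 ± 1.2 closer than that of Taf15. Pspc1 had 5.16 ± 0.515 and Nono, the lowest, 3.02 ± 0.24 CPM per kb of intronic feature. Many exonic features ran into introns, so these levels are per kb of feature and not per kb of messenger RNA.

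**Figure D1:**
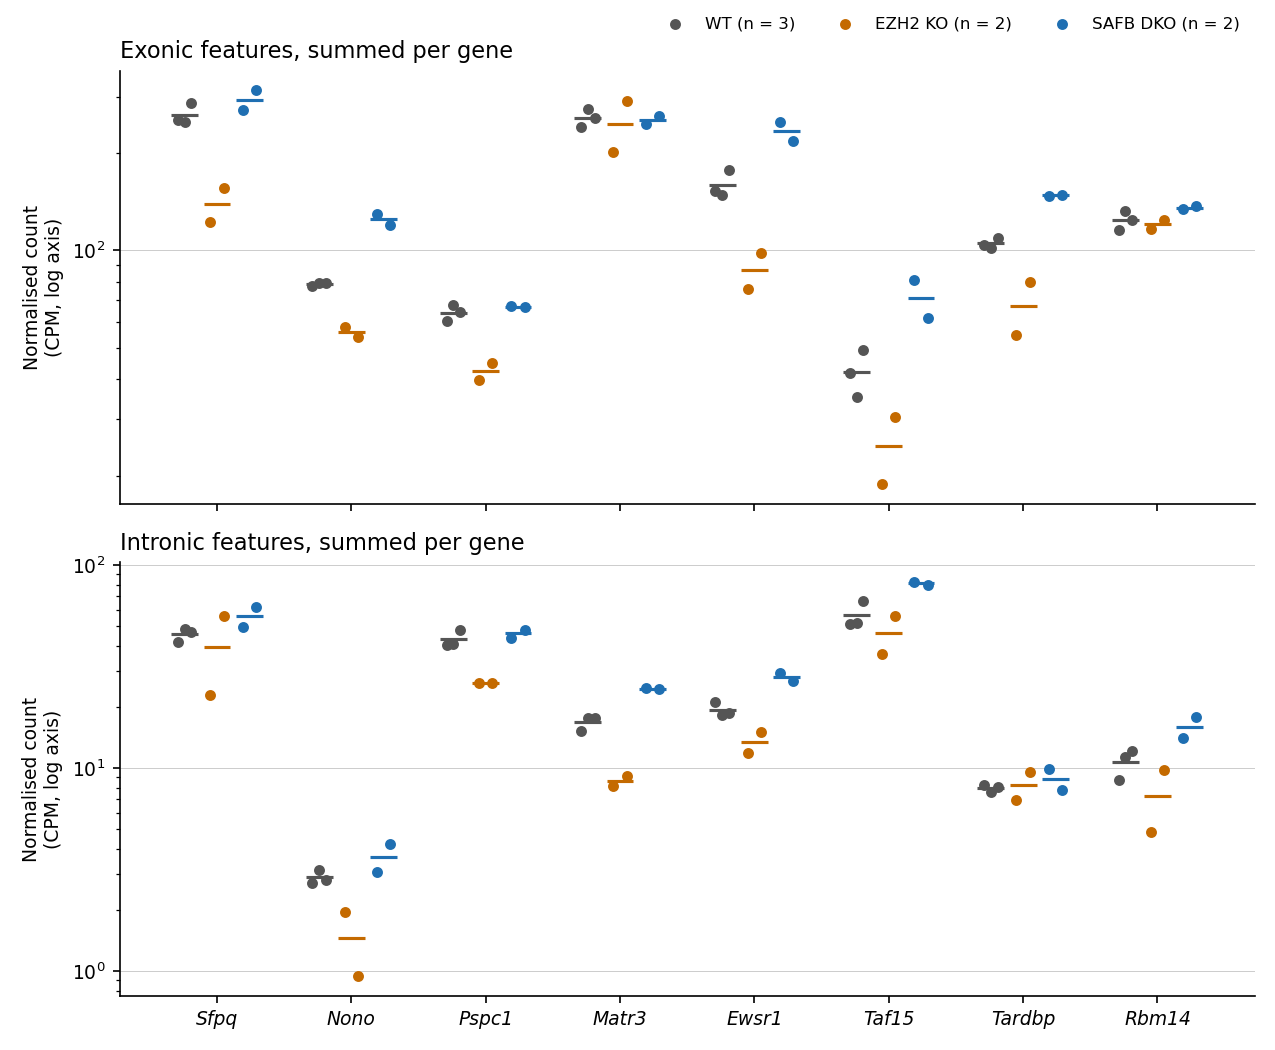
Normalised counts (CPM, log axis) of exonic (top) and intronic (bottom) features summed per gene, 1 point per library (WT n = 3, EZH2 KO n = 2, SAFB DKO n = 2) and a line at each group mean. Nono, Ewsr1, Taf15 and Tardbp exonic sums are lowest in EZH2 KO and highest in SAFB DKO, whereas Matr3 exonic sums overlap between groups.

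In SAFB DKO, RNA precipitated with the antibody was counted in cells that lack Safb and Safb2, without a comparison with input. Against WT, exonic sums of 4 of the 8 genes rose in SAFB DKO (Nono, Ewsr1, Taf15 and Tardbp, by 1.41 to 1.70 times) and none fell, and intronic sums of 3 rose (Matr3, Ewsr1 and Taf15, by 1.44 to 1.46 times) and none fell. Calls rest on edgeR's quasi-likelihood test with Benjamini-Hochberg adjusted p under 0.05 over all 28490 tested sums. Over all genes, 18.8% of exonic sums rose and 23.7% fell, and 1.34% of intronic sums rose and 45.4% fell. The median log2 fold change of the 8 intronic sums was 0.42, beside -0.90 over the intronic sums of all genes, and that of the exonic sums was 0.32, beside 0.03. Because the members hold no listed peak, genes without any listed peak are a nearer background, chosen after the data were seen: 2.16% of their intronic sums rose and 19.7% fell (median -0.32), and 22.9% of their exonic sums rose and 16.9% fell (median 0.19). Leaving out SAFB DKO replicate 1 left 1 exonic call, and leaving out WT replicate 1, WT replicate 2, SAFB DKO replicate 1 or SAFB DKO replicate 2 left 0 intronic calls.

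In EZH2 KO, RNA precipitated with the antibody was counted in cells that lack Ezh2, again without a comparison with input. Against WT, exonic sums of 6 of the 8 genes fell in EZH2 KO (Sfpq, Nono, Pspc1, Ewsr1, Taf15 and Tardbp, by 1.41 to 1.89 times) and none rose, and intronic sums of 3 fell (Pspc1, Matr3 and Ewsr1, by 1.44 to 1.95 times) and none rose. Over all genes, 19.3% of exonic sums rose and 25.9% fell, and 27.9% of intronic sums rose and 9.51% fell. The members' medians were -0.62 for exonic and -0.54 for intronic sums, beside -0.16 and 0.27 over all genes and -0.31 and -0.02 over genes without a listed peak. Among the latter 29.6% of exonic and 12.5% of intronic sums fell, and 15.7% and 14.9% rose. The intronic fall of Ewsr1 lost its call without any single WT library (-0.44 to -0.55), and the exonic fall of Taf15 without WT replicate 3 (-0.63). Leaving out EZH2 KO replicate 2 raised the intronic calls to 6. Both knockouts were compared with the same 3 WT libraries, so the 2 sets of values share them. Intervals carry names of peaks called on pooled WT libraries, so features enter through WT signal, which can tilt comparisons with WT toward falls. How far it did so was not tested.

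SAFB DKO against EZH2 KO tests whether the knockouts had unequal effects, with WT libraries entering through the filter, the scaling and the shared spread. Exonic sums of 6 genes and intronic sums of 6 genes were higher in SAFB DKO and none was lower. Of all genes, 35.3% of exonic and 8.96% of intronic sums were called higher and 30.5% and 50.8% lower. The log2 differences that passed ran from 0.66 (Pspc1, adjusted p = 0.00213) to 1.54 (Taf15, adjusted p = 9.15e-05) in exons and from 0.81 (Taf15, adjusted p = 0.00381) to 1.51 (Matr3, adjusted p = 3.9e-05) in introns. Those that did not pass were the exonic sums of Matr3 and Rbm14 and the intronic sums of Sfpq and Tardbp. The intronic sum of Nono, at 1.31 (adjusted p = 0.0282), lost its call without WT replicate 1, 2 or 3 (1.27 to 1.28), EZH2 KO replicate 2 (0.94) or SAFB DKO replicate 2 (1.10).

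**Figure D2:**
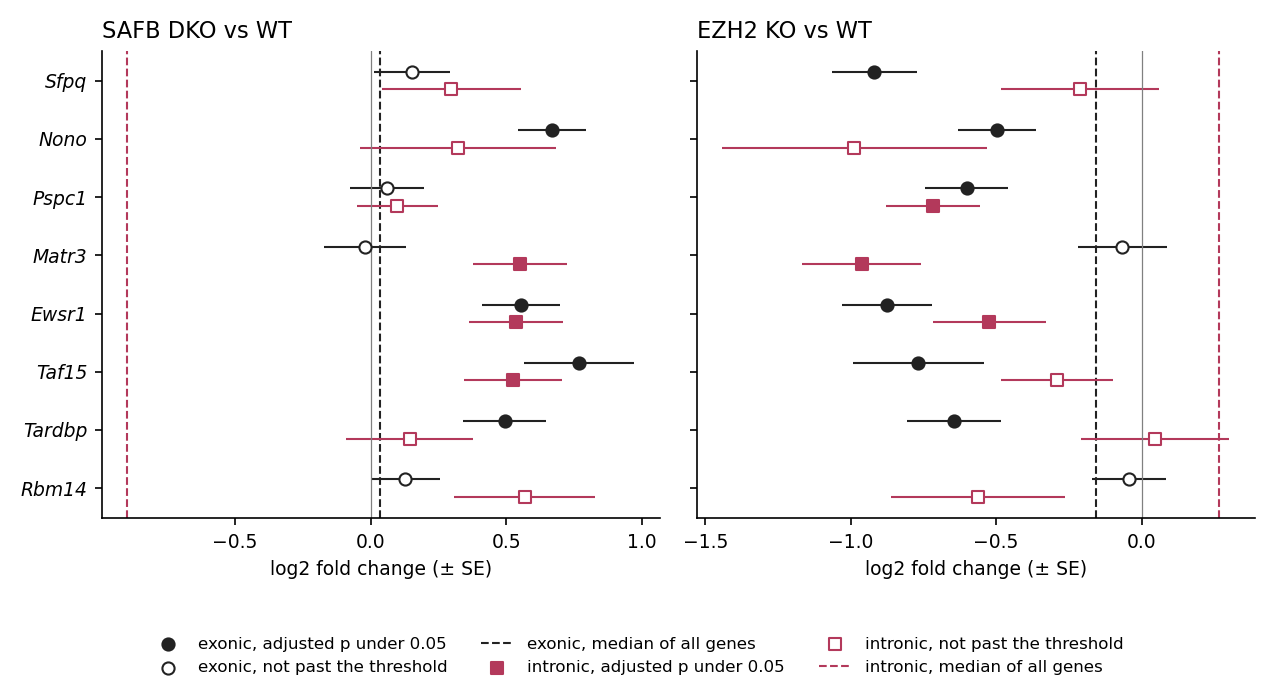
Log2 fold change (± SE) of exonic and intronic sums of the 8 genes in SAFB DKO (left) and EZH2 KO (right) against WT, filled where adjusted p was under 0.05, with dashed lines at the medians of all genes. In SAFB DKO the 8 intronic values lie to the right of the intronic median of -0.90, and in EZH2 KO they lie to the left of 0.27.

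Sfpq (ENSMUSG00000028820.13, chr4:127021324-127037013, plus strand) encodes a splicing factor and core paraspeckle protein. Its exonic sum was 253, 251 and 288 CPM in the WT libraries, 123 and 156 for EZH2 KO and 273 and 314 for SAFB DKO. Both EZH2 KO libraries lay below all others, and WT and SAFB DKO overlapped. The exonic sum fell in EZH2 KO (log2 fold change -0.92, SE 0.15, adjusted p = 0.000336) and had 0.15 (SE 0.14, adjusted p = 0.409) in SAFB DKO. Of its 6 exonic features 4 fell in EZH2 KO, and these were the second to the last but one from the 5′ end, with log2 fold changes of -0.96 to -1.80. The first and the last exonic feature had -0.36 and -0.66 and did not pass. The most counted one (chr4:127022797-127023803) had 78.0, 83.5 and 88.6 CPM in the WT libraries, 33.8 and 51.9 for EZH2 KO and 91.6 and 115 for SAFB DKO. The 4 features classed as intronic lay beyond the end of every basic Sfpq transcript, in or across the end of the span of Sfpq-206, a processed transcript outside the basic set. They therefore lie downstream of the coding transcripts and not in their introns, and 2 of them, the most counted among these, also overlapped Gm12940 on the same strand. Their sum had 23.0 and 56.0 CPM in the EZH2 KO libraries, on both sides of the 41.7, 48.4 and 46.8 in WT, and 49.8 and 62.4 in SAFB DKO. It did not pass in either knockout, with -0.21 in EZH2 KO (adjusted p = 0.561, and called at -1.05 without EZH2 KO replicate 2) and 0.30 in SAFB DKO (adjusted p = 0.379).

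Nono (ENSMUSG00000031311.17, chrX:101429318-101448591, plus strand) encodes the usual dimer partner of SFPQ. Its exonic sum was 77.9, 79.4 and 79.0 CPM in the WT libraries, 57.7 and 53.9 for EZH2 KO and 129.8 and 120.3 for SAFB DKO. The 3 groups did not overlap, with EZH2 KO lowest and SAFB DKO highest. The sum rose in SAFB DKO (0.67, SE 0.13, adjusted p = 0.000793) and fell in EZH2 KO (-0.50, SE 0.13, adjusted p = 0.00946). The rise in SAFB DKO kept its call in 15 of 15 alternatives, and the fall in EZH2 KO in 15 of 16, with -0.23 (adjusted p = 0.124) among sums of at least 50 counts on average. Of the 6 exonic features 3 rose in SAFB DKO, among them the last and most counted (chrX:101447603-101448584), with 26.6, 28.5 and 29.9 CPM in the WT libraries, 19.2 and 20.3 for EZH2 KO and 42.5 and 50.2 for SAFB DKO (0.71, SE 0.18, adjusted p = 0.00932). That feature lost its call without WT replicate 1 (0.65) or SAFB DKO replicate 2 (0.56). The feature at the 5′ end (chrX:101429746-101430843) had 29, 34 and 36 counts in WT and 0 in both EZH2 KO libraries, which is at least 6.91-fold lower taking 3 counts over the group as the floor. It passed the filter only through its WT and SAFB DKO counts, and was classed as exonic with only 7.0% of its bases in exons. The intronic sum was small, 1.45 ± 0.715 CPM in EZH2 KO against 2.89 ± 0.230 in WT (-0.99, adjusted p = 0.097, and -1.67 without EZH2 KO replicate 1). In SAFB DKO it had 3.63 ± 0.807 CPM (0.32, adjusted p = 0.506). When exonic features needed most of their bases in exons, the intronic sum was called in SAFB DKO (0.60, adjusted p = 0.00691) and in EZH2 KO (-0.56, adjusted p = 0.0164).

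Pspc1 (ENSMUSG00000021938.12, chr14:56720710-56778316, minus strand) encodes the third protein of this family. Its exonic sum was 60.4, 67.6 and 64.4 CPM in the WT libraries, 39.7 and 44.8 for EZH2 KO and 67.1 and 66.6 for SAFB DKO. The intronic sum, over 17 features, was 40.3, 40.7 and 47.9 CPM in the WT libraries, 26.2 and 26.1 for EZH2 KO and 43.9 and 48.1 for SAFB DKO. For both sums EZH2 KO lay below the other groups, which overlapped. Exonic (-0.60, SE 0.14, adjusted p = 0.00474) and intronic (-0.72, SE 0.16, adjusted p = 0.00324) sums fell in EZH2 KO. In SAFB DKO they had 0.06 (adjusted p = 0.752) and 0.10 (adjusted p = 0.632). A 531-base intronic feature (chr14:56762975-56763505) fell in EZH2 KO from 5.94 to 0.232 CPM (-4.64), and an exonic one (chr14:56724193-56724511) with 45 to 58 counts in each WT library had 0 in both EZH2 KO libraries, at least 11.2-fold lower. Both were chosen after their values were seen, and the exonic one passed the filter only through its WT and SAFB DKO counts. The most counted exonic feature (chr14:56777312-56778245), at the 5′ end, did not pass in EZH2 KO (-0.40, adjusted p = 0.226), and the most counted intronic one (chr14:56734820-56737034) fell (-0.88, adjusted p = 0.0491) but lost its call without any single WT library (-0.77 to -0.99) or EZH2 KO replicate 1 (-0.87).

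Matr3 (ENSMUSG00000037236.16, chr18:35562138-35593835, plus strand) encodes matrin 3, and its introns and exons parted. The exonic sum was 241, 274 and 257 CPM in the WT libraries, 201 and 291 for EZH2 KO and 247 and 261 for SAFB DKO. The intronic sum was 15.1, 17.6 and 17.7 CPM in the WT libraries, 8.12 and 9.12 for EZH2 KO and 24.7 and 24.4 for SAFB DKO. Exonic levels overlapped in all 3 groups, and intronic levels in none. The exonic sum had -0.02 (SE 0.15, adjusted p = 0.93) in SAFB DKO, a sign that turned with other scalings, and -0.07 (SE 0.15, adjusted p = 0.759) in EZH2 KO, where it was called lower without replicate 2 (-0.42). The intronic sum rose in SAFB DKO (0.55, SE 0.17, adjusted p = 0.0204) and fell in EZH2 KO (-0.96, SE 0.20, adjusted p = 0.00222). The rise lost its call without WT replicate 1 (0.47), WT replicate 2 (0.57), SAFB DKO replicate 1 (0.53) or SAFB DKO replicate 2 (0.53), and the fall kept its call in 15 of 15 alternatives. The 4 intronic features lay upstream of the first exonic feature, and the most counted of them overlapped an exon of Matr3-206, a coding transcript outside the basic set. The largest change among them in EZH2 KO was -3.34 (chr18:35566353-35566573, 2.42 CPM in WT and 0.236 in EZH2 KO). In all, 13 of the 15 features also overlapped Gm28285 on the same strand, and their reads cannot be split between the genes. These 13 include the 4 intronic ones, so the alternatives for the intronic sum hold no setting with features of 1 gene only.

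Rbm14 (ENSMUSG00000006456.10, chr19:4800569-4811634, minus strand) encodes a coactivator that paraspeckle assembly requires. Its exonic sum was 116, 132 and 125 CPM in the WT libraries, 117 and 124 for EZH2 KO and 134 and 137 for SAFB DKO, and its intronic sum was 8.69, 11.3 and 12.2, then 4.81 and 9.75, then 14.1 and 17.8 CPM. SAFB DKO lay above WT in both sums and EZH2 KO overlapped WT. No Rbm14 sum passed against WT. The exonic values were 0.13 (SE 0.13, adjusted p = 0.444) in SAFB DKO and -0.04 (SE 0.13, adjusted p = 0.812) in EZH2 KO, and the intronic ones 0.57 (SE 0.26, adjusted p = 0.0939) and -0.56 (SE 0.30, adjusted p = 0.15). The intronic sum was called in SAFB DKO without either EZH2 KO library (0.56) and in EZH2 KO without replicate 2 (-1.22). All 4 features also overlapped Gm21992 on the same strand. The most counted feature (chr19:4799950-4804058) had 83.9% of its bases in exons, with 95.7 ± 8.04 CPM in the WT libraries, 89.1 ± 1.21 for EZH2 KO and 106 ± 4.38 for SAFB DKO.

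Ewsr1 (ENSMUSG00000009079.16, chr11:5069689-5099266, minus strand) encodes a FET protein, and its exonic and intronic sums had the same direction in each knockout. The exonic sum was 153, 149 and 178 CPM in the WT libraries, 76.1 and 98.1 for EZH2 KO and 250.4 and 219 for SAFB DKO. The intronic sum was 21.2, 18.3 and 18.6 CPM in the WT libraries, 11.9 and 15.1 for EZH2 KO and 29.5 and 26.7 for SAFB DKO. In both sums EZH2 KO was lowest and SAFB DKO highest, with no overlap between groups. When exonic features needed most of their bases in exons, introns were instead higher relative to exons in EZH2 KO by 1.02 (adjusted p = 0.0004), against 0.35 (adjusted p = 0.182) by the rule used here. Exonic (0.55, SE 0.15, adjusted p = 0.00739) and intronic (0.54, SE 0.17, adjusted p = 0.023) sums rose in SAFB DKO and fell in EZH2 KO (-0.88, SE 0.15, adjusted p = 0.000644, and -0.52, SE 0.19, adjusted p = 0.0449). The exonic rise lost its call without SAFB DKO replicate 1 (0.45), and the intronic rise without any single WT (0.48 to 0.59) or SAFB DKO library (0.46 to 0.58). The exonic fall kept its call in 16 of 16 alternatives, and the intronic fall lost it without any single WT library (-0.44 to -0.55) or EZH2 KO replicate 1 (-0.43). The most counted exonic feature (chr11:5069733-5071702), at the 3′ end and holding the stretch printed above, had 60.4, 57.3 and 68.3 CPM in the WT libraries, 15.9 and 25.5 for EZH2 KO and 99.2 and 86.8 for SAFB DKO. It fell in EZH2 KO (-1.58, SE 0.21, adjusted p = 0.000158) and in SAFB DKO it rose (0.59, SE 0.19, adjusted p = 0.0384), the rise being lost without any single WT (0.52 to 0.64) or SAFB DKO library (0.48 to 0.65). Of the 11 exonic features 11 had a positive fold change in SAFB DKO, and 3 of them passed, while the median over all exonic features was positive too (0.27).

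Taf15 (ENSMUSG00000020680.15, chr11:83473086-83506743, plus strand) encodes another FET protein and had more intronic than exonic counts in every library. The exonic sum was 41.5, 35.2 and 49.0 CPM in the WT libraries, 18.8 and 30.5 for EZH2 KO and 80.9 and 61.8 for SAFB DKO. The intronic sum was 51.2, 51.7 and 66.8 CPM in the WT libraries, 36.5 and 56.0 for EZH2 KO and 82.6 and 80.0 for SAFB DKO. SAFB DKO lay above the other groups in both sums, and EZH2 KO lay below WT in exons but overlapped it in introns. Exonic (0.77, SE 0.20, adjusted p = 0.00768) and intronic (0.52, SE 0.18, adjusted p = 0.0315) sums rose in SAFB DKO. The exonic rise lost its call without SAFB DKO replicate 1 (0.56), and the intronic rise without WT replicate 1 (0.44), WT replicate 2 (0.45), SAFB DKO replicate 1 (0.49) or SAFB DKO replicate 2 (0.52). In EZH2 KO the exonic sum fell (-0.77, SE 0.22, adjusted p = 0.015), losing its call without WT replicate 3 (-0.63) or EZH2 KO replicate 1 (-0.52), and the intronic sum had -0.29 (adjusted p = 0.242, and called at -0.69 without EZH2 KO replicate 2). Its most counted feature was intronic (chr11:83491484-83493363, 1880 bases), with 23.9, 23.1 and 35.2 CPM in the WT libraries, 12.6 and 14.3 for EZH2 KO and 43.7 and 39.7 for SAFB DKO. The groups did not overlap there, and it fell in EZH2 KO (-1.03, SE 0.23, adjusted p = 0.00762) but did not pass in SAFB DKO (0.61, SE 0.21, adjusted p = 0.0528), where it was called without WT replicate 3 (0.80) or either EZH2 KO library (0.59 to 0.60). No basic or other Taf15 transcript of the annotation has an exon in that interval. The most counted exonic feature (chr11:83504193-83505128) had fewer counts, 12.6 ± 2.30 CPM in the WT libraries, 5.88 ± 2.58 for EZH2 KO and 20.3 ± 8.66 for SAFB DKO.

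Tardbp (ENSMUSG00000041459.15, chr4:148612382-148627019, minus strand) encodes TDP-43. Its exonic sum was 104, 102 and 109.6 CPM in the WT libraries, 54.7 and 79.9 for EZH2 KO and 148 and 148 for SAFB DKO, with no overlap between groups. It rose in SAFB DKO (0.49, SE 0.15, adjusted p = 0.0182) and fell in EZH2 KO (-0.65, SE 0.16, adjusted p = 0.00615). The fall kept its call in 16 of 16 alternatives, and the rise lost it without WT replicate 1 (0.47), WT replicate 2 (0.46), SAFB DKO replicate 1 (0.49) or SAFB DKO replicate 2 (0.46). All 6 exonic features had a positive fold change in SAFB DKO, from 0.40 to 0.80 (median of all exonic features 0.27), and none of these 6 passed on its own. The most counted one, in the 3′ part of the gene (chr4:148616935-148617592), had 45.1, 45.6 and 45.1 CPM in the WT libraries, 17.9 and 33.0 for EZH2 KO and 57.8 and 70.0 for SAFB DKO, and it fell in EZH2 KO (-0.83, SE 0.23, adjusted p = 0.0216), losing that call without any single WT library (-0.81 to -0.83) or EZH2 KO replicate 1 (-0.52). The single intronic feature (chr4:148623501-148624531) had 8.23, 7.62 and 8.09 CPM in the WT libraries, 6.92 and 9.59 for EZH2 KO and 9.85 and 7.75 for SAFB DKO, and the groups overlapped.

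Single features were tested as well as sums. In SAFB DKO 8 of 60 tested exonic features rose (3 of Nono, 3 of Ewsr1 and 2 of Taf15), 0 of 45 intronic ones did, and none fell. Of all exonic features 4.81% rose and 7.26% fell, and of all intronic ones 0.171% rose and 19.7% fell. Fold changes were positive in 50 of 60 exonic (median 0.43, all exonic features 0.27) and 35 of 45 intronic features (median 0.44, all intronic features -0.49). Without WT replicate 1, 2 or 3 the 8 calls became 0, 1 and 2, without SAFB DKO replicate 1 or 2 they became 1 and 4, and they became 19 without either EZH2 KO library, and the 0 intronic calls became 1 without WT replicate 3 and 3 without either EZH2 KO library. With DESeq2, 22 exonic and 7 intronic features rose and none fell.

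In EZH2 KO 13 exonic features fell (4 of Sfpq, 4 of Ewsr1, 2 of Taf15 and 1 each of Nono, Pspc1 and Tardbp) and none rose. Another 7 intronic features fell (3 of Pspc1, 2 of Matr3, 1 of Ewsr1 and 1 of Taf15) and none rose, though without EZH2 KO replicate 1 a Taf15 intronic feature (chr11:83475391-83476792, chosen after its values were seen) was called higher and 6 others lower. Of all exonic features 13.5% fell and 5.2% rose, and of all intronic ones 4.29% fell and 8.8% rose. Median fold changes were -0.61 over the exonic members (all exonic features -0.55) and -0.64 over the intronic members (all intronic features 0.01), the same with features at 0 set to their bound. The 13 calls became 8 without WT replicate 1 or 3 and 30 without EZH2 KO replicate 2, and the 7 became 3 without any single WT library and 17 without EZH2 KO replicate 2. Between the knockouts, 35 exonic and 13 intronic features were higher in SAFB DKO and none lower, and the 13 became 22 without EZH2 KO replicate 2 and 8 without SAFB DKO replicate 2. Of all features in that comparison 29.2% of exonic and 7.81% of intronic ones were called higher and 10.8% and 26.5% lower.

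**Figure D3:**
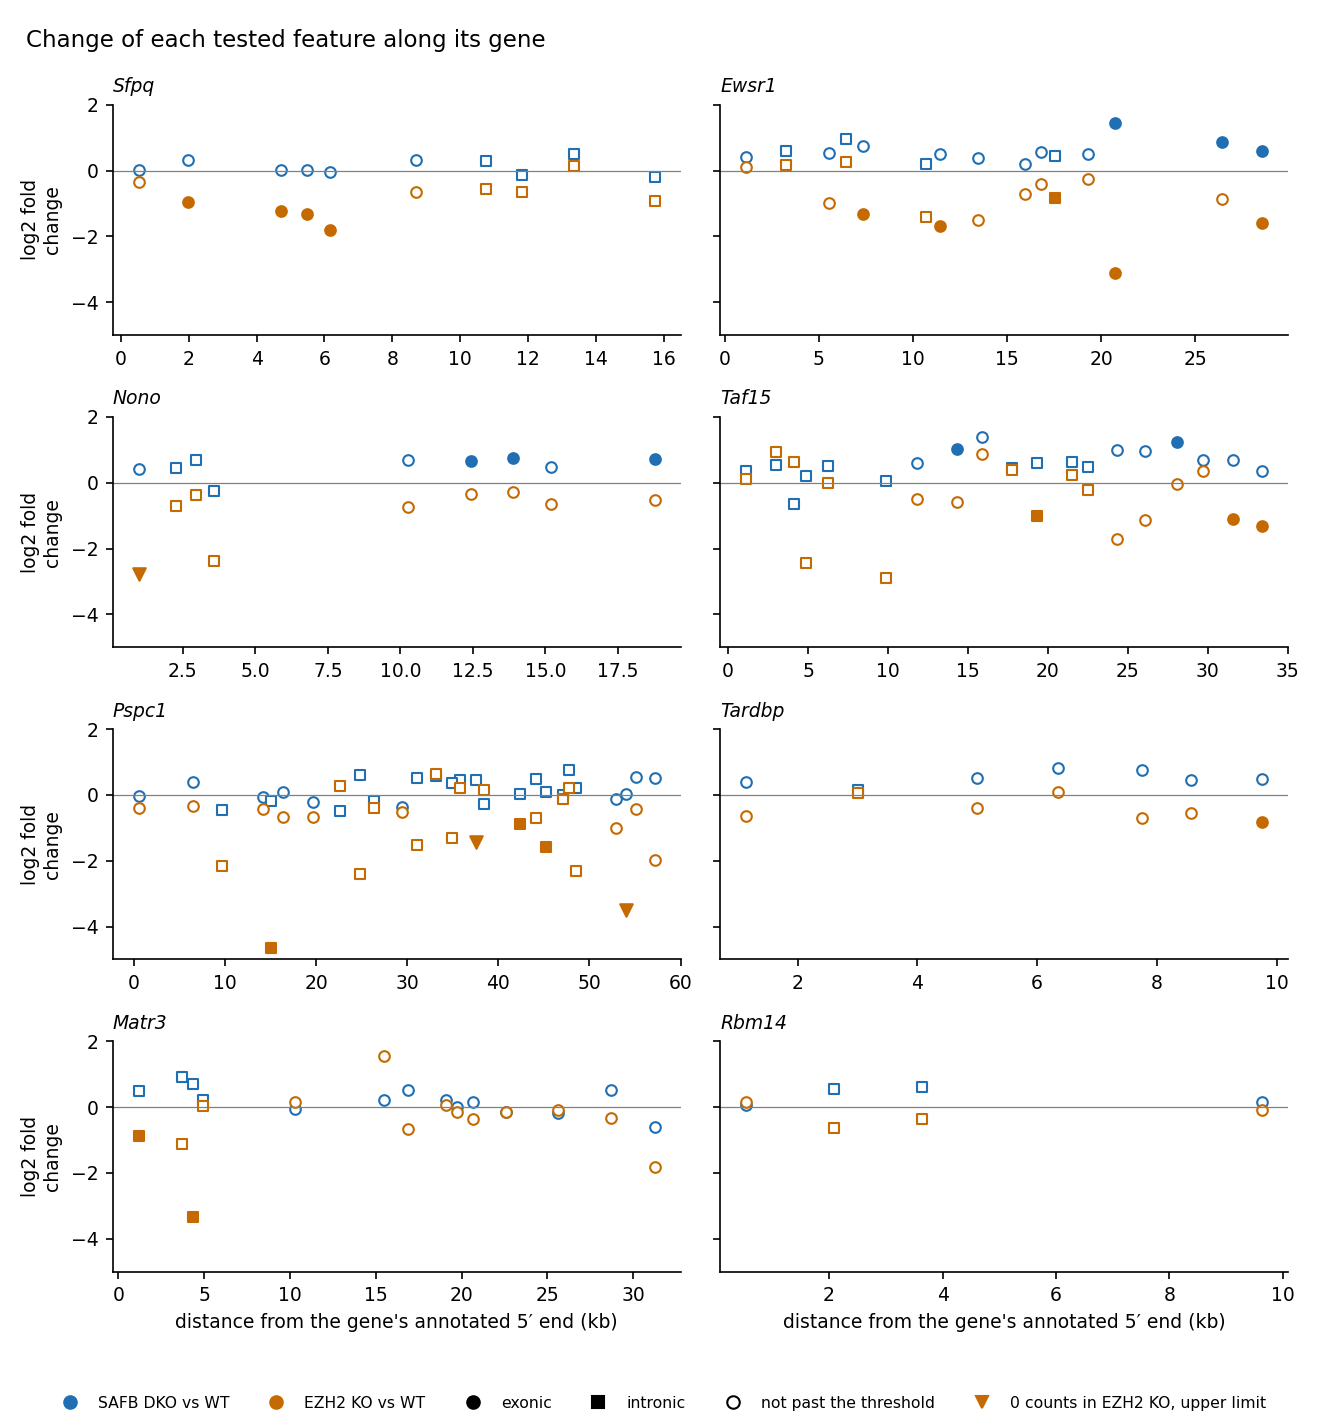
Log2 fold change of each tested feature against the distance (kb) of its midpoint from the annotated 5′ end of its gene, for SAFB DKO and EZH2 KO against WT, with circles for exonic and squares for intronic features, filled where adjusted p was under 0.05. Triangles mark 3 features with 0 counts in EZH2 KO, drawn at the upper limit that 3 counts over the group allow. The 4 Sfpq calls in EZH2 KO are adjacent, and the 2 Matr3 calls lie near the 5′ end.

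The share of a gene's counts in its intronic features needs no scaling between libraries. Over all genes this share was 24.4 ± 0.710% in WT (SD, n = 3), 32.8 ± 0.708% in EZH2 KO (n = 2) and 13.7 ± 0.0750% in SAFB DKO (n = 2). Pooled over the 8 genes it was 15.6 ± 0.446%, 16 ± 1.71% and 16.6 ± 0.532%, so the groups overlapped between WT and EZH2 KO and SAFB DKO lay just above WT. Over genes without a listed peak it was 10.1 ± 0.444%, 12.7 ± 0.435% and 8.06 ± 0.0890%. By the rule used here the median change of the 8 genes' shares was 0.24 percentage points in SAFB DKO and 0.75 in EZH2 KO. When exonic features needed most of their bases in exons it was -1.10 and 2.56, the direction of all genes. The 8 genes together held 0.13 ± 0.00735% of all counts in the WT libraries, 0.0785 ± 0.00326% for EZH2 KO and 0.187 ± 0.00156% for SAFB DKO.

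Single genes spread widely around that pooled share. In WT it was 57.5 ± 2.16% for Taf15, 40.1 ± 2.54% for Pspc1, 14.8 ± 1.22% for Sfpq, 10.9 ± 1.33% for Ewsr1, 7.92 ± 0.953% for Rbm14, 7.05 ± 0.235% for Tardbp, 6.12 ± 0.280% for Matr3 and 3.54 ± 0.243% for Nono. The Sfpq value counts features downstream of its coding transcripts and not in their introns. Matr3 had 8.83 ± 0.384% in SAFB DKO and 3.46 ± 0.587% in EZH2 KO, and Rbm14 had 10.5 ± 1.40% and 5.61 ± 2.34%. Tardbp went the other way, with 5.60 ± 0.904% in SAFB DKO and 11 ± 0.353% in EZH2 KO, as did Taf15 with 53.4 ± 4.17% and 65.4 ± 0.923%. An exact two-sided permutation test over libraries gave p = 0.1 at the least against WT, the smallest that 3 against 2 libraries allow, and 0.33 between the knockouts. Adjusted over the 24 tests the smallest value was 0.343. With so few libraries no share could have passed, whatever its values, so this test cannot decide whether shares differed. Of the 8 genes, 5 had shares in EZH2 KO that did not overlap those in WT, and 3 had such shares in SAFB DKO.

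**Figure D4:**
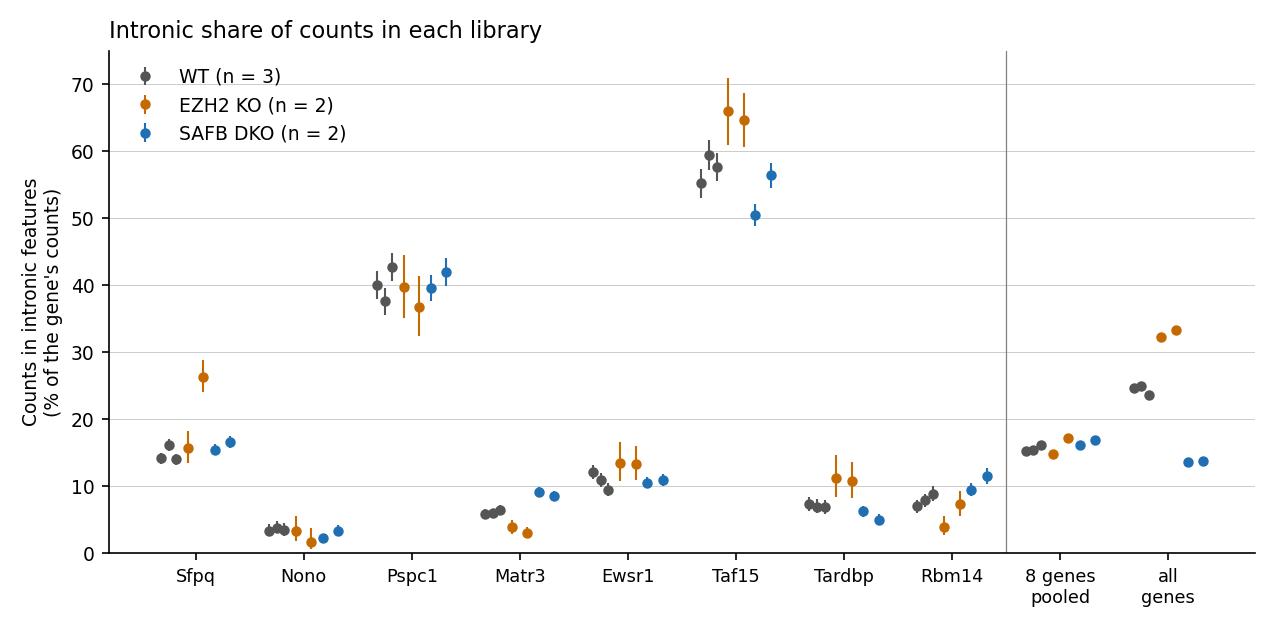
Percent of a gene's counts that lay in its intronic features, 1 point per library, with exact 95% Clopper-Pearson intervals for single genes (counting error only), and on the right the same share pooled over the 8 genes and over all genes. The pooled share of the 8 genes lies between 14.8% and 17.2% in all 7 libraries, whereas that of all genes is highest in EZH2 KO and lowest in SAFB DKO. When exonic features needed most of their bases in exons (not drawn), the median change over the 8 genes was -1.10 percentage points in SAFB DKO and 2.56 in EZH2 KO.

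A test across 9048 genes with both classes, in which each library was its own block, asked whether a gene's introns moved differently from its exons. For Sfpq the features taken as introns lie downstream of its coding transcripts. In SAFB DKO, Matr3 introns were higher relative to exons by 0.57 on the log2 scale (SE 0.15, adjusted p = 0.0090), and the other members did not pass, with -0.36 (Tardbp) to 0.44 (Rbm14). Over all genes 5.06% passed with introns higher and 38.2% with introns lower, and the median was -0.75, beside 0.01 over the members (-0.51 over genes without a listed peak). Matr3 did not pass with the top feature of each class only (0.65) or with limma on the log2 ratio (0.56). All of its intronic features also overlapped Gm28285, and the most counted one an exon of Matr3-206. The Matr3 call was lost without SAFB DKO replicate 1 (0.52), which left 0 calls, and without either EZH2 KO library Rbm14 was called as well, which made 2. In EZH2 KO, Matr3 introns were lower relative to exons by -0.88 (SE 0.18, adjusted p = 0.0033) and those of Tardbp higher by 0.70 (SE 0.22, adjusted p = 0.0286). Sfpq, with 0.62 (adjusted p = 0.0558), was called without EZH2 KO replicate 1 (1.05), and Rbm14, with -0.54 (adjusted p = 0.151), without EZH2 KO replicate 2 (-1.06). Over all genes 24.3% passed with introns higher and 7.42% with introns lower. With the top feature of each class only, Matr3 did not pass (-0.73) and Sfpq did (1.06). The Tardbp difference kept its call in 6 of 13 alternatives. It was 0.28 (adjusted p = 0.275) when exonic features needed most of their bases in exons. The Tardbp call was lost without any single WT library (0.68 to 0.73), EZH2 KO replicate 1 (0.66) or EZH2 KO replicate 2 (0.74), so that 1 call was left without any WT library.

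Other paraspeckle components moved in both directions. Of a list of 31, 29 had tested exonic sums: in SAFB DKO 7 rose and 4 fell (median 0.09), and in EZH2 KO 6 rose and 13 fell (median -0.43). Of the 25 with tested intronic sums, 0 rose and 3 fell in SAFB DKO (median 0.25), and 3 rose and 2 fell in EZH2 KO (median -0.07). Neat1, the RNA on which paraspeckles form, had 232 ± 80.2 CPM in the WT libraries, 598 ± 107 for EZH2 KO and 111 ± 1.19 for SAFB DKO. It fell in SAFB DKO (-1.07, adjusted p = 0.00295) and rose in EZH2 KO (1.36, adjusted p = 0.000505), whereas member sums that passed rose in SAFB DKO and fell in EZH2 KO. Rbm12, another RNA-binding protein gene, fell in SAFB DKO (-1.76, adjusted p = 8.09e-07) and rose in EZH2 KO (0.88, adjusted p = 0.000299). Among the 6 with the highest level, Smarcc1 and Smarca4, which encode chromatin remodelling subunits, fell in EZH2 KO in exons (-0.72 and -0.74) and in SAFB DKO in introns (-0.98 and -0.69), the intronic sum of Smarcc1 rising in EZH2 KO (1.29), while Hnrnpul1, an hnRNP gene, fell in exons in EZH2 KO (-0.33, adjusted p = 0.0448) and had 0.21 in SAFB DKO, which did not pass.

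A list of 16 other genes for RNA-binding proteins with low-complexity domains was counted in the same way, and the lists share members. In SAFB DKO 6 exonic sums rose and 1 fell (median 0.32), and in EZH2 KO 12 fell and 0 rose (median -0.81). Of the 13 with tested intronic sums 0 rose and 2 fell in SAFB DKO (median 0.29), and 1 rose and 1 fell in EZH2 KO (median -0.15). Hnrnpa2b1 (0.50 in SAFB DKO, adjusted p = 0.0276, and -1.56 in EZH2 KO) and Hnrnpab (0.65 and -1.60) encode hnRNP proteins and passed in both. Rbm33 had the highest level, and its intronic sum fell in SAFB DKO (-2.22) and rose in EZH2 KO (0.90).

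The genes nearest to each member over 4 log2 fold changes (exonic and intronic, each knockout against WT), by Euclidean distance among 9040 genes, were Ibtk for Taf15 (distance 0.08), Yif1b for Nono (0.09), Chd8 for Pspc1 (0.14), Pmm1 for Ewsr1 (0.14), Ints7 for Tardbp (0.15), Sephs1 for Sfpq (0.17), Mtfr2 for Rbm14 (0.22) and Cd2ap for Matr3 (0.23). This likeness describes 4 values that share the WT libraries.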

How the data were processed

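The authors deposited 1 table of raw read counts per interval for RIP-seq libraries, made with featureCounts 2.0.3 in reverse-stranded mode, per the file headers, on mm10, per the submitters' processing notes. Intervals carry names of peaks called on pooled WT libraries. Aligner and peak caller are not given in the sources used here. Another 3 value columns, spike-in counts and input were not used here. Groups came from the labels. Both SAFB DKO labels carry 1 shared number and got theirs in accession order.

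Counts were tested with edgeR 4.0.16 (R 4.3.3) quasi-likelihood, all 3 groups in 1 fit, scaled by TMM over 170869 features outside the filtered list, filtered by filterByExpr and adjusted by Benjamini-Hochberg over 192964 features or 28490 gene sums. Introns against exons used 9048 genes. CPM use the same scaling. The script was tested on simulated data. Alternatives were DESeq2 1.42.0, limma 3.58.1, other scalings, filters, classes of feature, a replicate block and leaving out each library. Intervals for shares cover counting error only. Shares were compared by exact permutation (scipy 1.17.1).

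Members and gene lists were chosen with earlier results of these data known. Named were the 8 genes, the most counted feature of each class, and the 6 list genes with the highest mean CPM. The hexamer description and the background of genes without a listed peak were added after seeing the data. Total counts of 7050832 to 21832539 per library limit precision, EZH2 KO most. A few list genes are not reported here.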

Additional observations from a re-analysis of the deposited data

How the results depend on the processing

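No reported call on a gene sum changed direction under any alternative run, and no value was called with all libraries, or under the alternative, where its sign turned. EZH2 KO, with the fewest counts, was the least precise group. Leaving out 1 library at a time gave these ranges of member calls. In SAFB DKO against WT they were 0 to 19 exonic features, 0 to 3 intronic features, 1 to 4 exonic sums, 0 to 4 intronic sums and 0 to 2 intron against exon differences. In EZH2 KO against WT they were 8 to 30 exonic features, 3 to 17 intronic features, 2 to 6 intronic sums and 1 to 2 intron against exon differences. Between knockouts 8 to 22 intronic features were called. The median change of the intronic share was -0.442 to 0.912 percentage points in SAFB DKO (0.24 with all libraries) and 0.366 to 1.03 in EZH2 KO (0.75).

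Scaling by column totals moved the median of all features by 0.22 (SAFB DKO) and -0.25 (EZH2 KO) and called 24 exonic and 7 intronic features and 5 intronic sums in SAFB DKO, 24 and 11 features and 6 intronic sums in EZH2 KO, and 25 intronic features between knockouts. DESeq2 called 22 exonic and 7 intronic features in SAFB DKO. TMM over all features called 1 intronic feature in SAFB DKO and 21 exonic ones in EZH2 KO. No filter and a mean of at least 50 counts each called 1 intronic feature in SAFB DKO, and the latter 6 between knockouts. With a mean of at least 50 counts 1 exonic and 1 intronic member were called higher in EZH2 KO and 1 exonic member lower in SAFB DKO than in EZH2 KO. Counting as exonic only features with most bases in exons gave 2 intronic calls in SAFB DKO, 23 exonic and 25 intronic ones between knockouts, and share changes of -1.10 (SAFB DKO) and 2.56 (EZH2 KO). Features of 1 gene only gave -0.16 and 0.45, with 0 and 1 intron against exon calls. No intronic feature of Matr3 or Rbm14 is left there, so their differences could not be tested in that setting. Keeping only the top feature of each class gave 2 exonic and 1 intronic sums in SAFB DKO and 0 (SAFB DKO) and 1 (EZH2 KO) intron against exon calls, and limma gave 0 in SAFB DKO. The cause of these shifts was not tested.

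The replicate number as a block (replicate block, WT and EZH2 KO) left 3 intronic features, 12 exonic features, 6 exonic and 2 intronic sums. Deviations of same-numbered libraries from their group means correlated at 0.032 and 0.0042. With 2 EZH2 KO libraries those deviations mirror each other, so these values cannot decide whether the numbers are a pairing.

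Signs of uncalled values turned as follows. In SAFB DKO, the Matr3 exonic sum was 0.068 (TMM over all), 0.20 (column totals), 0.022 (no filter), 0.47 (features of 1 gene), 0.23 (DESeq2) and -0.090 to 0.016 (single libraries left out). The Pspc1 exonic sum was -0.0069 (at least 50 counts) and -0.022 (top feature only), and its top exonic feature 0.067, 0.20, 0.021 and 0.23 (TMM, totals, no filter, DESeq2) and -0.21 to 0.12. Its top intronic feature was -0.041 (at least 50 counts) and -0.15 to 0.14. The Matr3 top exonic feature was 0.069 (totals) and 0.099 (DESeq2), and the Tardbp intronic sum and feature -0.048 to 0.28. Intron against exon differences were -0.12 to 0.076 for Ewsr1, -0.037 to 0.12 and -0.057 (most bases) for Pspc1 and -0.0015 (features of 1 gene) for Sfpq. In EZH2 KO, the Tardbp intronic sum, which is 1 feature, was -0.086, -0.21 and -0.051 (TMM, totals, no filter), -0.39 (most bases) and -0.27 to 0.20. The Sfpq intronic sum was 0.016 (at least 50 counts), 0.12 (top feature only) and -1.05 to 0.23, and its top intronic feature -0.013 (TMM), -0.16 (totals) and -0.46 to 0.44. With at least 50 counts the Matr3 and Rbm14 exonic sums were 0.18 and 0.21, and their top exonic features 0.11 and 0.16. Without single libraries these sums were -0.42 to 0.11 and -0.15 to 0.020, the Matr3 sum being called at -0.42. Intron against exon differences of Pspc1 and Rbm14 were 0.092 and 0.074 (most bases). Between knockouts, the Matr3 exonic sum was -0.27 (at least 50 counts), -0.0025 (most bases), -0.0060 (top feature only) and -0.14 to 0.39, the Tardbp intronic sum -0.22 (at least 50 counts) and -0.070 to 0.40, and the Rbm14 exonic sum -0.15 (at least 50 counts).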
